A study of Mus musculus with 9 samples.

Results

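The mRNAs of 10 genes of the neuronal microtubule and growth cone apparatus were followed through a CELF2 pull-down from newborn mouse cortex: *Dcx*, *Mapt*, *Stmn3*, *Map2*, *Map1a*, *Map1b*, *Stmn1*, *Stmn2*, *Stmn4* and *Gap43*. They were chosen by name, as 10 of 18559 protein-coding genes with a count in any library. All 54 of their RefSeq transcript rows, of 107384 rows in the deposited table, were taken both summed per gene and row by row. All 10 genes and 42 of the 54 rows passed the filter on low counts, and 4 rows had less than 1 estimated count in every library.

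Microtubules give axons and dendrites their shape and carry transport along them. Microtubule-associated proteins bind the assembled polymer and stabilize or bundle it, whereas the stathmins bind free tubulin and promote disassembly. The growth cone, the motile tip of an extending axon, depends on both kinds of protein and on membrane proteins such as GAP-43. CELF2 is an RNA-binding protein of the CELF family, whose members regulate splicing in the nucleus and stability and translation in the cytoplasm.

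In RNA immunoprecipitation-sequencing (RIP-seq) an antibody captures a protein from a lysate, and the RNA bound to it or held by the beads is sequenced. The material of all 9 libraries was cortex of newborn mice (postnatal day 0) heterozygous for a *Celf2* knock-in (KI) of p.Arg493His, from which the cytoplasm was separated. There were 3 CELF2-KI RIPs made with a rabbit antibody to CELF2, 3 IgG RIPs made with normal rabbit IgG, and 3 input libraries of cytoplasm that met no antibody. Each pull-down had 10 µg of its antibody and lasted 3 hours at 4 °C. The 3 groups share this genotype and age, so every comparison below is between pull-downs or between a pull-down and its input, and none is between genotypes. The labels do not say how many cortices went into a library, and p-values measure the spread between these libraries.

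A CELF2-KI RIP library had 13523208 to 16840312 estimated counts of protein-coding genes, an IgG RIP library 9347321 to 14965243 and an input library 55250740 to 78514685. Ribosomal RNA held 35.0% and 33.0% of all counts in IgG RIP replicates 1 and 2, 11% in IgG RIP replicate 3, and at most 2.28% in any other library. Levels below are CPM, counts scaled to the same protein-coding total in each library, after TMM scaling, which are not divided by transcript length, so a level is compared between groups and not between genes. A gene is called where edgeR's false discovery rate (FDR) over all 15267 tested genes is under 0.01 and the change is at least 2-fold. The 10 genes together held 0.881% to 1.0% of a CELF2-KI RIP library, 0.834% to 1.1% of an IgG RIP library and 0.972% to 1.06% of an input library, so the share of the group as a whole overlapped between the 3 conditions.

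The members did not move as a block. *Dcx* and *Mapt* were about 3-fold higher in CELF2-KI RIP than in IgG RIP and over 2-fold higher than in input, *Stmn3* was called higher than IgG RIP but not than input, and the other stathmins, *Map2*, *Map1a*, *Map1b* and *Gap43* were not called higher than either control. Of the 10 members, CELF2-KI RIP had 3 called above IgG RIP (*Dcx*, *Mapt* and *Stmn3*), beside 13.4% of all tested genes, and 0 were called lower, beside 13.6% of all tested genes. For that count of 0, 4 members were lower at an unadjusted p under 0.05 in edgeR (*Map2*, *Map1a*, *Stmn1* and *Stmn4*), and DESeq2 called 0. Against input, 2 were called higher (*Dcx* and *Mapt*), beside 14.6% of tested genes, and 1 lower (*Stmn4*), beside 15.5%. The 2 members called higher than both controls, *Dcx* and *Mapt*, stand beside 7.58% of tested genes. The median log2 fold change of the 10 members was -0.01 over IgG RIP and 0.01 over input, against -0.06 and 0.19 over all tested genes, with members spread from -0.77 to 1.69 and from -1.11 to 1.47.

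**Figure D1:**
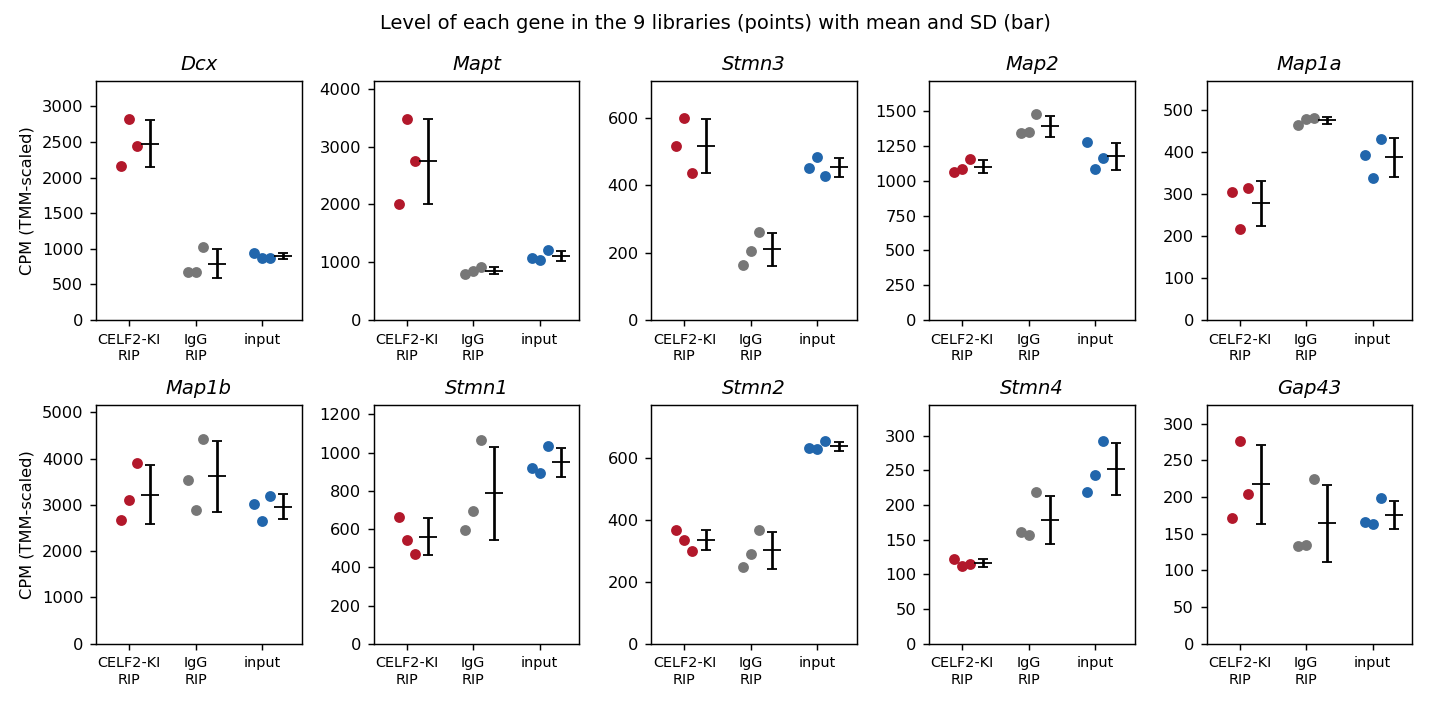
Level of each of the 10 genes in CPM (TMM-scaled, y axis starting at 0) in the 3 CELF2-KI RIP, 3 IgG RIP and 3 input libraries; points are libraries in the order of replicates 1, 2 and 3, and the bar beside them is the mean with its SD. For *Dcx* and *Mapt* all 3 CELF2-KI RIP points lie above all 6 controls, for *Stmn3* the IgG RIP points lie below the other 6, and for *Stmn2* the input points lie above the other 6.

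*Dcx* encodes doublecortin, a microtubule-binding protein of migrating and newly born neurons, and lies on chromosome X at 143855842 to 143933396 (GRCm38.p6). Its level in CELF2-KI RIP replicates 1, 2 and 3 was 2165 CPM, 2826 CPM and 2447 CPM. In IgG RIP it was 681 CPM, 671 CPM and 1022 CPM, and in input 946 CPM, 869 CPM and 877 CPM. Every CELF2-KI RIP library was thus more than double every control library, while IgG RIP and input overlapped. The mean of 2479 ± 331 CPM (SD, n = 3) was 3.13-fold above the IgG RIP mean of 791 ± 200 CPM (log2 fold change 1.65, SE 0.17, 95% interval 1.26 to 2.03, edgeR FDR = 3.36e-05). It was 2.76-fold above the input mean of 897 ± 42.1 CPM (log2 fold change 1.47, SE 0.17, 1.08 to 1.85, edgeR FDR = 5.57e-05). The 2 controls came next with no detected difference between them (log2 fold change of IgG RIP over input -0.18, interval -0.56 to 0.20, edgeR FDR = 0.419).

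*Mapt* encodes tau, which binds and stabilizes axonal microtubules, and lies on chromosome 11 at 104229409 to 104332090. In CELF2-KI RIP its level was 2004 CPM, 3479 CPM and 2749 CPM, the widest spread within a group for this gene. In IgG RIP it was 788 CPM, 856 CPM and 914 CPM, and in input 1067 CPM, 1042 CPM and 1211 CPM. The 3 groups did not overlap, with CELF2-KI RIP highest and IgG RIP lowest. CELF2-KI RIP (2744 ± 737 CPM) was 3.22-fold above IgG RIP (853 ± 63.1 CPM; log2 fold change 1.69, SE 0.18, 1.28 to 2.09, edgeR FDR = 3.65e-05). It was 2.48-fold above input (1106 ± 91.1 CPM; log2 fold change 1.31, SE 0.18, 0.91 to 1.71, edgeR FDR = 0.000136). The step between the controls did not pass the test (log2 fold change of IgG RIP over input -0.38, interval -0.77 to 0.02, edgeR FDR = 0.114). Among all tested genes, the log2 fold changes over IgG RIP of *Mapt* and *Dcx* stood at the 96.6th and 96.2nd percentiles, and those over input at the 91.1st and 94.4th.

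The scaling sets how far these 2 genes exceed input. The median log2 fold change of all tested genes over input was 0.19 with TMM scaling and -0.27 with total counts, and over IgG RIP it was -0.06 and -0.42. With total counts, the values over input were 0.997 for *Dcx* and 0.83 for *Mapt*, both short of 2-fold, so that 0 members were then called higher than both controls. The calls of the 10 members were then 2 higher and 1 lower over IgG RIP, beside 6.14% and 22.4% of all tested genes. Over input they were 0 higher and 3 lower, beside 3.48% and 23.5% of all tested genes. Relative to the median of all genes, *Dcx* stood 1.27 above it over input under all 4 scalings tried, and *Mapt* between 1.10 and 1.12. A test against a 2-fold change in place of 0 (edgeR's glmTreat) likewise left 0 members higher than input, with FDR 0.0199 for *Dcx* and 0.0862 for *Mapt*. Leaving out each of the 9 libraries in turn kept both calls of both genes in all 9 fits.

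**Figure D2:**
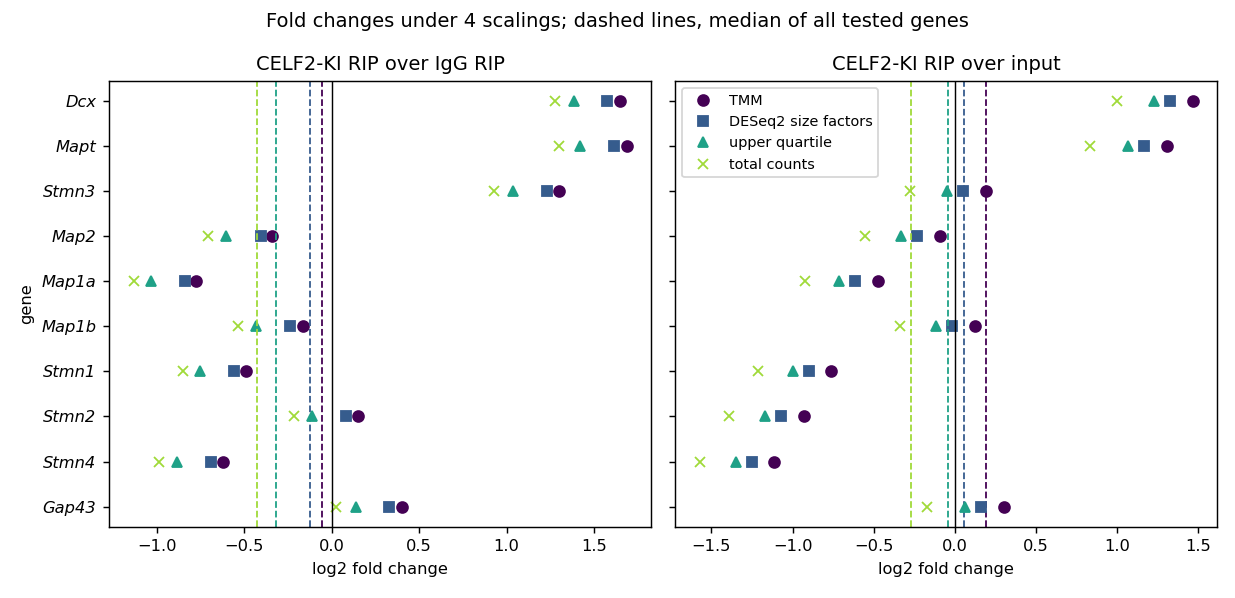
Log2 fold change of each gene (x axis) in CELF2-KI RIP over IgG RIP and over input under TMM, DESeq2 size factors, upper quartile and total-count scaling (symbols); dashed lines are the median of all 15267 tested genes under the same scaling. The symbols of a gene shift together with the dashed lines, and *Dcx* and *Mapt* lie to the right of every line in both panels.

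Ratios between 2 members of the same library need no scaling; the 3 ratios given here were chosen after their values were seen. The ratio of *Mapt* to *Map2* counts, 2 structurally related microtubule-associated proteins of axon and dendrite, was 1.88, 3.20 and 2.38 in replicates 1, 2 and 3 of CELF2-KI RIP. It was 0.585, 0.633 and 0.617 in those of IgG RIP and 0.835, 0.957 and 1.04 in those of input. The ratio of *Dcx* to *Map1b* was 0.813, 0.910 and 0.627 with the CELF2 antibody, 0.193, 0.232 and 0.231 with control IgG, and 0.312, 0.327 and 0.275 before any pull-down. Both ratios separated the CELF2-KI RIP libraries from all 6 controls. On the geometric mean, the first was 3.97-fold higher in CELF2-KI RIP than in IgG RIP and 2.58-fold higher than in input, and the second 3.55-fold and 2.55-fold. An exact permutation test gave p = 0.1 for both ratios against each control. That is the smallest value that 3 libraries against 3 allow, so the test could not pass a threshold of 0.05. Each ratio sets a member called higher than both controls over a member called against neither. The separation was therefore built into that choice, and no support is drawn from it. How many other gene pairs separate in this way was not counted.

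*Stmn3* encodes a neuron-enriched stathmin (SCLIP) and lies on chromosome 2 at 181306459 to 181314500. Its level was 515 CPM, 599 CPM and 437 CPM in CELF2-KI RIP, 164 CPM, 206 CPM and 260 CPM in IgG RIP, and 450 CPM, 483 CPM and 427 CPM in input. CELF2-KI RIP and input overlapped, and every IgG RIP library lay below both. *Stmn3* was 2.46-fold higher in CELF2-KI RIP than in IgG RIP (517 ± 81.0 CPM against 210 ± 48.4 CPM; log2 fold change 1.30, SE 0.17, 0.91 to 1.69, edgeR FDR = 0.000141). Over input (453 ± 28.6 CPM) no difference was detected (log2 fold change 0.19, interval -0.19 to 0.57, edgeR FDR = 0.360), and its sign turned under 3 of the alternative fits. The comparison of the 2 controls themselves called *Stmn3* 2.16-fold lower in IgG RIP than in input (log2 fold change -1.11, interval -1.50 to -0.73, edgeR FDR = 0.00101). The call over IgG RIP held without any single library and was lost with total-count scaling (log2 fold change 0.93) and with glmTreat (FDR 0.0966).

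Among the other 3 stathmins the highest group mean was in input, although for *Stmn1* the IgG RIP and input libraries overlapped. *Stmn2* encodes SCG10, a stathmin of growth cones, and lies on chromosome 3 at 8509527 to 8561604. Its level was 366 CPM, 336 CPM and 301 CPM in CELF2-KI RIP, 249 CPM, 289 CPM and 368 CPM in IgG RIP, and 631 CPM, 628 CPM and 655 CPM in input. The 2 pull-downs overlapped and both lay far below every input library. *Stmn2* was 2.11-fold lower in IgG RIP than in input (log2 fold change -1.08, interval -1.40 to -0.76, edgeR FDR = 0.000485), and 1.91-fold lower in CELF2-KI RIP than in input (-0.93, interval -1.25 to -0.61, FDR = 0.000296), which passed the FDR but not the 2-fold limit. The latter difference passed both in 9 of 19 alternative fits, with log2 fold changes from -1.39 (total-count scaling) to -0.86 over the 19. Between the 2 pull-downs the log2 fold change was 0.15 (interval -0.17 to 0.47, edgeR FDR = 0.405), and it was -0.22 with total-count scaling. With *Stmn3*, *Stmn2* made 2 members whose IgG RIP level was called below input, beside 5% of tested genes. In that comparison 0 members were called higher, beside 6.79%, by edgeR and by DESeq2, and 1 member was higher at an unadjusted p under 0.05 in edgeR (*Map2*). Both lower calls were lost without IgG RIP replicate 1, where each log2 fold change was -0.95, with only curated transcripts summed and with glmTreat.

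*Stmn4* encodes a stathmin of the same neuronal branch (RB3) and lies on chromosome 14 at 66344210 to 66361680. Its level was 123 CPM, 111 CPM and 115 CPM in CELF2-KI RIP, 161 CPM, 156 CPM and 219 CPM in IgG RIP, and 219.5 CPM, 243 CPM and 293 CPM in input. All 3 CELF2-KI RIP libraries lay below all 6 controls, and IgG RIP lay below input. It was 2.16-fold lower than input (116 ± 5.8 CPM against 252 ± 37.4 CPM; log2 fold change -1.11, interval -1.46 to -0.77, edgeR FDR = 0.000156), a call lost without input replicate 3 (-0.995). Against IgG RIP (179 ± 34.8 CPM) it was 1.54-fold lower, past the FDR but not the 2-fold limit (log2 fold change -0.62, interval -0.97 to -0.28, edgeR FDR = 0.00611).

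*Stmn1* encodes stathmin 1, which is abundant in dividing progenitors as well as in young neurons, and lies on chromosome 4 at 134468320 to 134473843. Its level was 664 CPM, 545 CPM and 472 CPM in CELF2-KI RIP, 598 CPM, 696 CPM and 1064 CPM in IgG RIP, and 919 CPM, 894 CPM and 1033 CPM in input. CELF2-KI RIP lay below every input library and overlapped IgG RIP. It was 1.69-fold lower than input (log2 fold change -0.76, interval -1.22 to -0.30, edgeR FDR = 0.00891), short of 2-fold, and the difference from IgG RIP did not pass the test (-0.49, interval -0.95 to -0.03, edgeR FDR = 0.0663). The ratio of *Stmn3* to *Stmn1* was 0.776, 1.10 and 0.926 with the CELF2 antibody, 0.274, 0.296 and 0.245 with control IgG, and 0.490, 0.541 and 0.413 before any pull-down. In this ratio, also chosen after its values were seen, no CELF2-KI RIP value overlapped those of the 6 controls. *Stmn3* itself overlapped input (log2 fold change 0.19), while *Stmn1* was lower than input (-0.76). The separation from input therefore does not place *Stmn3* above input. The exact permutation test again gave its smallest possible value, p = 0.1, against each control, and no support is drawn from it.

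*Map2*, which encodes the classic dendritic microtubule-associated protein (chromosome 1, 66175202 to 66442583), was nearly level. It had 1065 CPM, 1087 CPM and 1157 CPM in CELF2-KI RIP, 1348 CPM, 1352 CPM and 1482 CPM in IgG RIP, and 1278 CPM, 1088 CPM and 1165 CPM in input. Every IgG RIP library was above every other library, by a small margin. CELF2-KI RIP was 1.26-fold below IgG RIP, which missed the threshold (log2 fold change -0.34, interval -0.56 to -0.12, edgeR FDR = 0.0151), and the difference from input was smaller (-0.09, interval -0.32 to 0.13, FDR = 0.438). These intervals reach no further than -0.56 and 0.13, so with this scaling a 2-fold change of *Map2* lies outside both.

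*Map1a* and *Map1b* encode large precursor proteins that are cut into a heavy and a light chain; *Map1b* is the form of growing axons and *Map1a* that of mature neurons. *Map1a* (chromosome 2, 121289590 to 121310832) had 305 CPM, 217 CPM and 313 CPM in CELF2-KI RIP, 465 CPM, 479 CPM and 482 CPM in IgG RIP, and 392 CPM, 339 CPM and 431 CPM in input. The 3 groups did not overlap, with CELF2-KI RIP lowest and IgG RIP highest. It was 1.71-fold lower than IgG RIP, past the FDR but not the 2-fold limit (log2 fold change -0.77, interval -1.10 to -0.44, edgeR FDR = 0.00141), and -0.48 against input (interval -0.81 to -0.15, FDR = 0.0180). *Map1b* (chromosome 13, 99421464 to 99516602) had 2663 CPM, 3106 CPM and 3902 CPM in CELF2-KI RIP, 3534 CPM, 2889 CPM and 4426 CPM in IgG RIP, and 3028 CPM, 2659 CPM and 3191 CPM in input. All 3 groups overlapped, and no difference was detected (log2 fold change -0.17, interval -0.57 to 0.23, edgeR FDR = 0.462 over IgG RIP, and 0.12, interval -0.28 to 0.52, FDR = 0.574 over input). Against input the sign for *Map1b* turned with each of the other 3 scalings.

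*Gap43* encodes the growth cone membrane phosphoprotein GAP-43 and is a member attached to the membrane rather than to tubulin (chromosome 16, 42248552 to 42340651). Its level was 171 CPM, 277 CPM and 204 CPM in CELF2-KI RIP, 134 CPM, 134 CPM and 224 CPM in IgG RIP, and 166 CPM, 164 CPM and 198 CPM in input. The groups overlapped, and the log2 fold change was 0.40 over IgG RIP (interval -0.11 to 0.92, edgeR FDR = 0.162) and 0.31 over input (interval -0.20 to 0.81, FDR = 0.270). The upper bounds stop short of 2-fold in both.

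**Figure D3:**
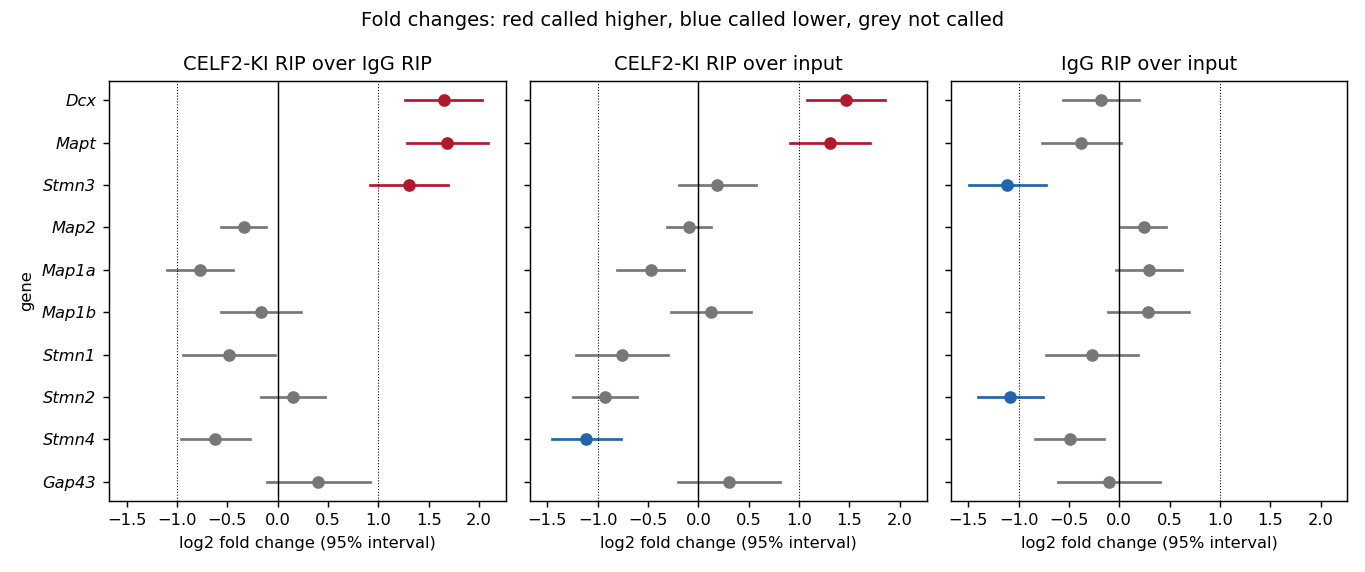
Log2 fold change of each gene (point) with its 95% interval (line) in the 3 comparisons; dotted lines mark a 2-fold change, red genes were called higher, blue lower, and grey not called. *Dcx* and *Mapt* are red over both controls, *Stmn3* is red over IgG RIP and blue in IgG RIP over input, and *Stmn4* is blue over input.

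Counted by separation of the libraries alone, 3 members lay wholly above IgG RIP (*Dcx*, *Mapt* and *Stmn3*), beside 30% of all tested genes, and 3 wholly below (*Map2*, *Map1a* and *Stmn4*), beside 27.4%. Against input 2 lay wholly above (*Dcx* and *Mapt*), beside 42.1%, and 4 wholly below (*Map1a*, *Stmn1*, *Stmn2* and *Stmn4*), beside 31.8%. *Dcx* and *Mapt* lay above all 6 controls, beside 25.2%, and *Map1a* and *Stmn4* below all 6, beside 19.9%. At an FDR under 0.01 with no limit on size, 2 members were lower than IgG RIP (*Map1a* and *Stmn4*), beside 19.2% of tested genes, and 3 lower than input (*Stmn1*, *Stmn2* and *Stmn4*), beside 20.1%. Within IgG RIP, replicate 3, the library with the lowest share of ribosomal RNA, had the highest level of the 3 for all 10 members. Without it, the log2 fold changes over IgG RIP were 1.87 for *Dcx*, 1.73 for *Mapt* and 1.48 for *Stmn3*, with each call kept. No replicate of CELF2-KI RIP led in this way: replicate 1 was highest for 3 members, replicate 2 for 4 and replicate 3 for 3. In input, replicate 3 was highest for 7 members and replicate 2 lowest for 8. The shares of all tested genes highest or lowest in each of these IgG RIP, CELF2-KI RIP and input libraries were not counted. Whether the lead of IgG RIP replicate 3 or the ranks in input are particular to the members was not tested. Their cause was not tested either.

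Some marker lists of the cells in a newborn cortex differed between the groups and others overlapped. The 8 neuronal markers used (*Tubb3*, *Rbfox3*, *Snap25*, *Syt1*, *Neurod2*, *Neurod6*, *Tbr1* and *Bcl11b*) were all detected, with a summed level of 3542 to 4470 CPM in CELF2-KI RIP, 1769 to 2155 CPM in IgG RIP and 2737 to 3029 CPM in input. Of these, 5 were called higher than IgG RIP and 2 higher than input, at a median log2 fold change of 1.06 and 0.40. The 7 radial glia and progenitor markers summed to 174 to 270 CPM in CELF2-KI RIP, 463 to 510 CPM in IgG RIP and 590 to 630 CPM in input, and 3 of 7 were called lower than each control. The 5 erythroid markers, all globins or heme synthesis genes, summed to 92.7 to 95 CPM, 366 to 584 CPM and 877 to 1135 CPM, and 5 of 5 were called lower than IgG RIP and 4 of 5 lower than input. The 5 inhibitory neuron markers summed to 522 to 596 CPM with the CELF2 antibody, 310 to 363 CPM with control IgG and 420 to 442 CPM before any pull-down, with 1 called higher than IgG RIP and 1 lower than input. The 6 markers of astrocytes and the oligodendrocyte lineage summed to 563 to 654 CPM, 424 to 477 CPM and 486 to 600 CPM in the same order, again with 1 called higher than IgG RIP and 1 lower than input. The 5 endothelial markers overlapped among all 3 groups (162 to 237 CPM, 137 to 318 CPM and 173 to 278 CPM), with 1 called lower than input. Of 6 microglial markers 5 were tested (all but *P2ry12*), at 91.5 to 125 CPM, 53.6 to 72.1 CPM and 117 to 152 CPM, with 1 called higher and 1 lower than IgG RIP, and 1 higher and 3 lower than input. These counts of called markers stand beside 13.4% of all tested genes called higher and 13.6% lower than IgG RIP. Against input the shares were 14.6% and 15.5%. A count of 1 in such short lists is near those shares, and nothing is read from it. The part of these differences in the results for the 10 members was not tested. A level in a bulk input library does not tell the number of cells of a type from the RNA per cell.

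Row by row, the summed levels of most members rested on 1 dominant transcript or on rows that shared reads. The deposited counts were estimated by kallisto, which divides reads common to several transcripts of a gene, and row levels carry their own TMM scaling over 39137 tested rows, whose median over all tested rows was -0.20 (log2) against IgG RIP and -0.14 against input. Of the 42 tested rows, 4 were called higher than IgG RIP, beside 3.19% of all tested rows, and 1 lower, beside 3.15%. That 1 row, *Mapt* NM_001038609.2, passed the filter on low counts only through the IgG RIP libraries, so nothing is read from its call. The 4 were *Dcx* NM_001110222.1 (log2 fold change 1.28), *Mapt* NM_001285456.1 (1.5), *Mapt* NM_010838.4 (2.36) and the single *Stmn3* row NM_009133.3 (1.06), with edgeR FDR between 0.000645 and 0.00859. Over input, 0 rows were called higher by edgeR, beside 0.94% of tested rows, although 7 were higher at an unadjusted p under 0.05, and DESeq2 was not run on rows. The 2 rows called lower than input, *Stmn2* NM_025285.2 (-1.41) and *Stmn4* NM_019675.3 (-1.65), stand beside 4.51% of tested rows. *Stmn2* has only this row, and the same counts gave -0.93 with the scaling of genes, which was not called. The single *Stmn3* row likewise stood at -0.30 over input on the row scale, against 0.19 for the gene.

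The *Mapt* locus had 9 rows, all tested, and NM_001285456.1 held 92.3% to 94.8% of the gene's counts in CELF2-KI RIP, 88.5% to 91.7% in IgG RIP and 91.4% to 92.2% in input. Its level was 1672 CPM, 2671 CPM and 2164 CPM in CELF2-KI RIP, 686 CPM, 763 CPM and 847 CPM in IgG RIP, and 1167 CPM, 1145 CPM and 1319 CPM in input. The groups kept the order of the whole gene without overlap, and on the row scale the main row passed the call over IgG RIP but not over input (log2 fold change 0.84, edgeR FDR = 0.0171). A minor row, NM_010838.4, had 95.4 CPM, 93.7 CPM and 77.9 CPM in CELF2-KI RIP, 20.4 CPM, 14.2 CPM and 17.5 CPM in IgG RIP, and 70.1 CPM, 61.1 CPM and 54.1 CPM in input, and its share of the gene was 3.33% to 5.27% in CELF2-KI RIP, 1.66% to 2.63% in IgG RIP and 3.78% to 5.49% in input.

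Another *Mapt* row, NM_001038609.2, had over 1 estimated count in IgG RIP alone. It had 489, 213 and 335 estimated counts in the 3 IgG RIP libraries, 3.89%, 2.47% and 2.63% of the gene's counts there, and under 1 estimated count in each CELF2-KI RIP library and 0 in each input library. Its IgG RIP level was 25.2 ± 4.56 CPM. These counts are estimates that depend on how reads shared between rows were divided. The row also passed the filter only through IgG RIP, so no fold change is read from it. When any of the 3 IgG RIP libraries was left out, the row fell below the filter on low counts.

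Within-gene usage of 38 member rows was tested with edgeR's diffSpliceDGE, which called 2 rows between CELF2-KI RIP and IgG RIP, beside 0.717% of all 32896 tested rows. One was NM_001038609.2 of *Mapt*, from which again nothing is read, and the other *Map1b* XM_006517548.2, a predicted transcript. The *Map1b* row held 2.98%, 3.73% and 7.15% of the gene's counts with the CELF2 antibody, 23.0%, 27.0% and 29.1% with control IgG, and 15.2%, 15.2% and 29.2% before any pull-down. The CELF2-KI RIP libraries lay below all 6 controls in this share, with the curated row NM_008634.2 taking the rest (92.8% to 97.0%, 70.9% to 77.0%, and 70.8% to 84.8%). The share differed from IgG RIP at an FDR of 0.00741 (edgeR diffSpliceDGE), a call kept in 6 of 13 alternatives, with FDR from 0.000607 to 0.0588. Over input, 0 member rows were called for usage, beside 0.502% of tested rows, and 1 of 38 had an unadjusted p under 0.05, again this one (edgeR FDR = 0.0275, and 0.00305 with replicate number as a block). The whole gene did not pass the test in either comparison, as given above. Summing only the curated rows of every gene, scaled anew, put *Map1b* at 0.06 (log2) over IgG RIP. The median of all tested genes was then -0.13.

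**Figure D4:**
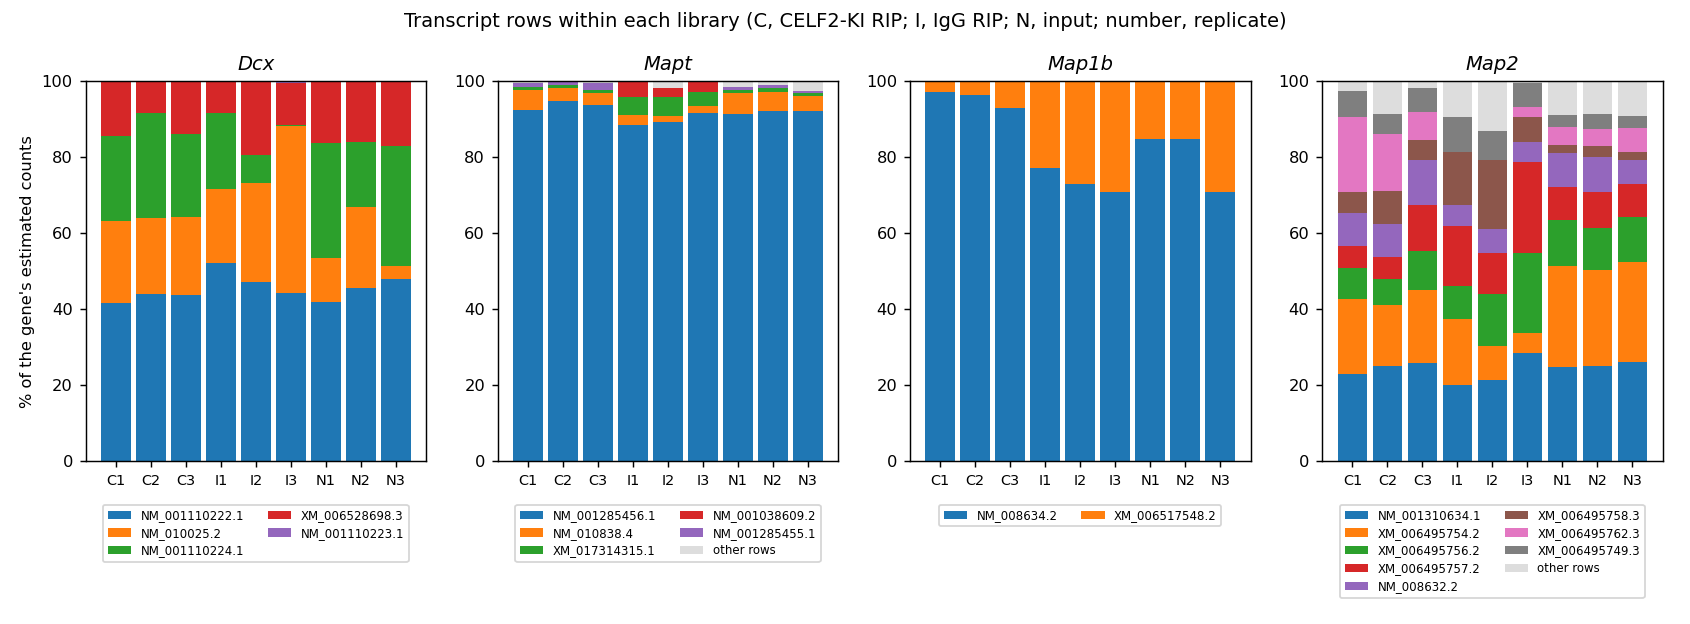
Share of each transcript row in the estimated counts of its gene (stacked bars, in percent) in each of the 9 libraries for *Dcx*, *Mapt*, *Map1b* and *Map2*; C, I and N stand for CELF2-KI RIP, IgG RIP and input, and the number is the replicate. NM_001038609.2 of *Mapt* is visible in the 3 IgG RIP bars only, the XM_006517548.2 segment of *Map1b* is thinnest in the CELF2-KI RIP bars, and the rows of *Dcx* and *Map2* trade shares between replicates.

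For *Dcx*, NM_001110222.1 held a steady 41.5% to 43.9% of the counts in CELF2-KI RIP, 44.2% to 52.2% in IgG RIP and 41.8% to 48.0% in input. Its level rose 2.42-fold over IgG RIP (906.6 ± 96.6 CPM against 374 ± 73.5 CPM, edgeR FDR = 0.00165) and was 1.89-fold above input (481 ± 14.4 CPM, FDR = 0.00647), short of the 2-fold limit. The rows NM_001110224.1 and NM_010025.2 exchanged counts between replicates of the same group. The first had 20.1%, 7.39% and 0.25% in IgG RIP, where the second had 19.3%, 25.9% and 43.9%, and in input the second had 11.7%, 21.4% and 3.31%. No usage difference of a *Dcx* row passed the test.

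*Map2* had 25 rows, of which 15 were tested and the remaining 10 held 0.121% of the gene's counts, and no single row dominated. NM_001310634.1 held 22.9% to 25.7% in CELF2-KI RIP, 20.1% to 28.4% in IgG RIP and 24.9% to 26.2% in input. The predicted row XM_006495762.3 held 19.9%, 14.8% and 7.49% with the CELF2 antibody, 0%, 0% and 2.58% with control IgG, and 4.65%, 4.56% and 6.21% before any pull-down. All 3 CELF2-KI RIP libraries lay above the other 6 in that share, but the test against IgG RIP missed the threshold (edgeR diffSpliceDGE FDR = 0.0120) and was passed in 2 of 13 alternatives. *Map1a* had 2 tested rows, XM_006498872.3 with 77.4% to 87.9% of the counts over the 9 libraries, and no row of *Map1a* or of *Stmn4*, where NM_019675.3 held 78.9% to 86.2%, was called for usage. *Stmn1*, *Stmn2*, *Stmn3* and *Gap43* had 1 row each.

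A wider list of 54 genes of microtubule plus ends, severing, nucleus and organelle coupling, kinases of microtubule-associated proteins, neurofilaments and growth cones was described beside the members. All 54 were tested; 11 (20.4%) were called higher than IgG RIP and 8 (14.8%) lower, beside the 13.4% and 13.6% of all genes. Over input 16 were called higher and 7 lower, beside 14.6% and 15.5% of all genes. The 16 include *Fez1*, which had 0 CPM in every input library and 4.72 CPM, 0 CPM and 4.91 CPM in CELF2-KI RIP. Its libraries overlapped, and nothing is read from its call. With total-count scaling the list had 6 higher and 13 lower over IgG RIP, beside 6.14% and 22.4% of all genes. It had 4 higher and 12 lower over input, beside 3.48% and 23.5%. The median log2 fold change of the list with TMM was 0.30 over IgG RIP and 0.50 over input, against -0.06 and 0.19 over all tested genes. The 9 called higher than both controls were *Mapre1* (the plus-end protein EB1), *Dpysl2*, *Dpysl3* and *Dpysl5* (collapsin response mediators), *Clasp2*, *Pafah1b1* (LIS1), *Spast*, *Cdk5r1* and *Gsk3b*, beside 7.58% of all genes. The 6 lower than both, beside 9.54% of all genes, included *Map7d1*, *Nde1*, *Cdk5*, *Nefl* and *Ina*.

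Among the called genes of that list, the largest rises over IgG RIP were about the size of those of *Dcx* and *Mapt*. *Gsk3b*, a kinase that phosphorylates tau, had 175 CPM, 495 CPM and 220.2 CPM in CELF2-KI RIP, against 71.3 to 103 CPM in IgG RIP and 83.8 to 100.1 CPM in input (log2 fold change over IgG RIP 1.80, SE 0.34, edgeR FDR = 0.00116). *Dpysl2* (1.69, SE 0.21) and *Spast*, which encodes the severing enzyme spastin (1.69, SE 0.17), followed. Among the largest falls of called genes were those of *Dbn1*, which encodes the actin-binding protein drebrin (-2.01, SE 0.12), and *Cdk5*, a tau kinase (-1.75, SE 0.26). *Dbn1* stood at 388 to 465 CPM in CELF2-KI RIP, 1525 to 1799 CPM in IgG RIP and 504 to 600.1 CPM in input. Its log2 fold change over input was -0.37 (edgeR FDR = 0.0178), so its fall was relative to IgG RIP. In IgG RIP *Dbn1* was itself called 3.10-fold higher than in input (log2 fold change 1.63, edgeR FDR = 4.46e-05). *Cdk5* and its activator *Cdk5r1* were called in opposite directions over both controls.

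As a description of likeness, the genes whose log2 CPM followed *Dcx* most closely over the 9 libraries were *Vgll4* (Pearson's r = 0.997), *Gpr176* (0.996) and *Tspyl4* (0.996), and those nearest to *Mapt* were *Dnajb1* (0.996), *R3hdm4* (0.994) and *Acvr1b* (0.994). All points share the 3 groups and their depths, so a gene with the same step between groups scores high. *R3hdm4* had a larger step than *Mapt*, with log2 fold changes of 2.56 over IgG RIP and 2.08 over input, while *Vgll4* stood close to *Dcx* at 1.51 and 1.34.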

How the data were processed

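RNA from CELF2-KI RIP, IgG RIP and input (3 libraries each) was analysed from the table that the authors deposited. Per the labels and the paper's methods, the authors trimmed reads with fastp 0.23.4, removed rRNA reads with Ribodetector 0.3.1 and quantified transcripts with kallisto 0.51.1. The deposited values are estimated counts per RefSeq transcript, not normalized for depth or length. The paper names Ensembl as the transcriptome, while the rows carry RefSeq accessions.

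Rows were matched to genes by accession without version in a RefSeq table of assembly GRCm38.p6. Rows without a gene there (20662, or 19.2%, holding 14.7% of counts) were left out, and all 9 columns were used. Counts were summed per gene and rounded. The filter asked for 0.5 CPM or more in 3 or more libraries, and protein-coding genes that passed were tested in edgeR 4.0.16 (R 4.3.3) with TMM scaling, a mean per group and the quasi-likelihood test. The paper names edgeR and a CPM filter but not its value. A standard error is the log2 fold change divided by the square root of F. Rows were tested likewise, and transcript usage with diffSpliceDGE. Alternatives were DESeq2 1.42.0, other scalings and filters, glmTreat, left-out libraries, a replicate block, and sums of curated or same-version rows, the last 2 chosen after seeing the data. The steps were tested on simulated data.

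The members, the wider list and the tests were chosen with earlier results of these data known. Named are the members and their tested rows, the called genes of the wider list with the 3 largest rises and falls over IgG RIP, and the 3 genes most correlated with each member called higher than both controls. A few items are not reported here. Other genes of the wider list are named only where a count over both controls lists them, or for a limit of a count (*Fez1*), chosen after their values were seen. Same-numbered libraries deviated together between CELF2-KI RIP and input (correlations across 11534 genes of 0.185, 0.122 and 0.213). The limit of 0.1 was not reached across IgG RIP and CELF2-KI RIP (-0.0702, 0.0382 and -0.0107). Nor was it across IgG RIP and input (0.0873, 0.0636 and 0.00793). The number thus pairs CELF2-KI RIP with input. The main tests left this pairing out, and it served as an alternative block. Over all tested genes, the block called 2138 higher and 2300 lower than input, against 2226 and 2366 without it. Over all tested rows, it called 66 and 610, against 368 and 1767. Against IgG RIP, the rows called were 357 higher and 311 lower with the block, and 1250 and 1231 without it. Reads carry no molecular identifiers.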

Additional observations from a re-analysis of the deposited data

How the results depend on the processing

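With *Dcx* and *Mapt* above IgG RIP, direction and call held in all 19 alternatives, with log2 fold changes of 1.27 to 1.87 and 1.30 to 1.87. With total-count scaling 0 members were higher than input and 0 higher than both controls, 3 were lower than input and 1 lower than IgG RIP; glmTreat gave 0 higher than input, 0 higher than both, 0 lower than input and 0 lower in IgG RIP than in input. Members lower than input, 1 as reported (*Stmn4*), were 2 (*Stmn4* and *Stmn2*) with DESeq2 size factors, upper quartile scaling, no filter, only the groups compared, the DESeq2 Wald test and same-version rows, and 0 to 2 with a library left out. Upper quartile scaling gave 1 member lower than IgG RIP. In IgG RIP against input, 0 were lower with curated rows and 0 to 2 with a library left out.

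Of the wider list, total counts, upper quartile scaling and glmTreat gave 6, 7 and 4 genes higher than IgG RIP and 4, 9 and 1 higher than input. Total counts and glmTreat gave 13 and 2 lower than IgG RIP and 12 and 1 lower than input, and same-version rows 4 lower than input.

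Of the member rows, 4 were lower than IgG RIP with total counts, 3 with a 2 CPM filter and 0 to 2 with a library left out; 2 were higher than input with DESeq2 size factors, 2 with curated rows and 0 to 1 with a library left out; and 1 to 2 were lower than input with a library left out. Rows called for usage over IgG RIP were 1 among curated rows and 0 to 2 with a library left out. The replicate block gave 1 row called for usage over input, *Map1b* XM_006517548.2, in place of 0, and changed no other count of members by more than 1.5 times.

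Signs turned only for values that had not passed the test. *Map1b* over IgG RIP was 0.058 with curated and 0.077 with same-version rows, and -0.33 to 0.0011 with a library left out. *Map1b* over input was -0.017 with DESeq2 size factors and with the DESeq2 Wald test, -0.34 with total counts, -0.11 with upper quartile scaling, -0.10 with only the groups compared and -0.061 to 0.24 with a library left out. *Stmn2* over IgG RIP was -0.22 with total counts and -0.11 with upper quartile scaling. *Stmn3* over input was -0.28, -0.050 and -0.038 with total counts, upper quartile scaling and only the groups compared. *Gap43* over input was -0.17 with total counts, and in IgG RIP over input 0.015 with curated rows and -0.39 to 0.035 with a library left out. The cause of these shifts was not tested.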
